A study of Mus musculus with 24 samples.

Results

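The transcripts described here are 9 myelin genes of mature oligodendrocytes, Mbp, Mobp, Cnp, Mog, Mag, Cldn11, Ermn, Opalin and Aspa. They were chosen by symbol, though with earlier results of these data known. All 9 were present in each of the 4 deposited tables, which list 14323 to 14489 genes. The tissue was cortex, taken from male mice of 3 to 4 months after 1 h of transient occlusion of the middle cerebral artery with a filament (tMCAo, a rodent model of ischemic stroke) and 1 day of reperfusion. The 24 libraries fall into 4 groups of 6, which pair the genotypes WT and KO with the marks CL and PI. WT is wild type, and KO lacks ciRS-7, also named Cdr1as, a circular RNA that binds the microRNA miR-7. All 4 groups underwent the same surgery, and the labels give the same strain name, C57BL/6N-Cdr1asem1Nikr, for all animals, the wild type included. What CL and PI stand for is not written in the labels, and the marks are used as given. Within a genotype the same 6 numbered animals give the CL and the PI libraries, so neither mark is an animal without surgery. The study's purpose was to compare gene expression between wild type and ciRS-7 knockout animals after stroke.

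Oligodendrocytes wrap axons of the central nervous system in many layers of their own membrane. The sheath is held together by a small set of abundant proteins that are made late in the life of the cell, which is why their transcripts serve as markers of mature oligodendrocytes. In cortex, myelin is densest in the deep layers and in the white matter beneath. Transcription of these genes is driven by SOX10 and by the myelin regulatory factor MYRF. In bulk tissue, fewer oligodendrocytes and less of a transcript in each oligodendrocyte cannot be told apart.

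Values are log2 CPM, the log2 of a gene's reads scaled to the size of the library. Depth, read from the spacing of low values, was 5.25 to 10.5 M reads per library (M, mega), and 3 reads corresponded to at most 0.572 CPM in the shallowest library. The lowest of the 9 genes, Opalin, had group means of 5.18 to 6.32 CPM, well above that limit, which reflects only the error of counting. In every gene and group the 2 lowest values of the 6 are tied and so are the 2 highest, the pattern left when outer values are replaced by a group's quartiles, a step that no label records. The lowest and the highest value given below are therefore read as quartiles, the median is exact, and group means are means of the 4 values that can be recovered. Values of single libraries, their ranges, sums and deviations are the deposited ones, so the true value of an animal at either end of its group is not known. The row named Cdr1as ranged from 11.75 to 11.89 log2 CPM in CL WT and from 11.35 to 11.52 in PI WT. It reached at most 0.0601 CPM in the CL libraries and 0.166 CPM in the PI libraries of the knockout, below the worth of 3 reads, as the genotype labels say. Of the lists of other cell types, neuron markers (12 of 12 listed in the tables) summed to 8137 to 8756 CPM in CL WT, whereas only 2 of 12 markers of choroid plexus and ependyma and 2 of 12 of neutrophils and monocytes were listed in the tables of PI and CL.

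Sequences upstream of these genes are given because the 9 genes are studied here for moving together. The factors that drive them bind known short words, and the windows shown are of 3 members that hold such words. RefSeq promoters (GRCm38.p6) were matched for 8 of the 9 genes. Capitals mark the SOX words ACAAAG and ACAATG and the MYRF words CTGGCAC and CTGGTAC, on either strand, in the 250 bases before the start. Cnp and Mag hold 1 word of each kind, and Mobp holds 6 SOX words, all on the strand opposite to the one printed. The windows of Cldn11 and Aspa, not shown, hold neither kind. RefSeq lists 3 starts for Mag, and the window of 1 of them is shown. The window chr7:30914923-30915172 overlaps it and holds the same words, and the window chr7:30914322-30914571 holds none. The windows are chr11:100574689-100574938 on the plus strand for Cnp, chr7:30914864-30915113 on the minus strand for Mag, and chr9:120149492-120149741 on the plus strand for Mobp.
Cnp: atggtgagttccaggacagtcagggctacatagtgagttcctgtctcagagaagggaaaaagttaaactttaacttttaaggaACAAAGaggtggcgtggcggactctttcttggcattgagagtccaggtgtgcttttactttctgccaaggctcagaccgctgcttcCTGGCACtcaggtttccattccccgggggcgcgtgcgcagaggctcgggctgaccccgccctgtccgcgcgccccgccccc
Mag: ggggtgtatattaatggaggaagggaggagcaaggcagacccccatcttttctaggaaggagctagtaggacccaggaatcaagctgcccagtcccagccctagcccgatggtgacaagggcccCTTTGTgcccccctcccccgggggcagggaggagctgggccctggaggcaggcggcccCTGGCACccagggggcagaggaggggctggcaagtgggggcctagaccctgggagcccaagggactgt
Mobp: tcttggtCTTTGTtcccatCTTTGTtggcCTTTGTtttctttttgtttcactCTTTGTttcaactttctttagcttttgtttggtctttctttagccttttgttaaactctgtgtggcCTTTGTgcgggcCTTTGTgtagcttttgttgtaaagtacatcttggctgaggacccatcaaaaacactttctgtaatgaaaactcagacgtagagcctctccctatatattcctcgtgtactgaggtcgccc
SOX words were in the windows of 5 of 8 members (Cnp, Ermn, Mag, Mobp and Opalin) and of 28.2% of all 27025 genes, counted over any of a gene's promoters as for the members (25.2% of 32851 single promoters). MYRF words were in the windows of 3 of 8 (Cnp, Mag and Mog) and of 6.79% of all genes (5.93% of promoters). The words of the 2 factors share no bases in these windows. The palindromic word CAGCTG, bound by OLIG-type factors, was in 1 of 8 (Aspa) and in 14.7% of all genes (13.0% of promoters). A match describes letters in the window and is not a site shown to be bound.

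Because ciRS-7 binds miR-7, the longest annotated 3′ UTR of each gene was searched for the 7 bases that pair with positions 2 to 8 of the microRNA, its seed, in capitals here.
mmu-miR-7a-5p: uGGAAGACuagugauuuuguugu
Mog site: gtgatggttgtGTCTTCCtggagcggaag
Mobp site: actccatcattGTCTTCCaggatcatctg
The match starts at base 12 of the Mog 3′ UTR and at base 2759 of the Mobp 3′ UTR, and the capitals in these sites mark it. None was in the 3′ UTRs of the other 7 genes, and 15.9% of the 12361 genes that the CL table lists with an annotated 3′ UTR hold one.

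Per length, Mbp was the most abundant of the 9 in all 4 groups and Opalin the least. Levels between genes are compared only as CPM per kb of exon, from the deposited values and GENCODE M21 exon lengths. Each length covers all annotated exons of a gene, such as 5954 bases in 10 blocks for Aspa. The transcript expressed can be shorter, so the order depends on this choice of length. In CL WT the order was Mbp (106 CPM per kb), Mobp (55.0), Cldn11 (36.05), Cnp (23.9), Ermn (18.0), Mog (8.76), Mag (8.44), Aspa (3.57) and Opalin (1.86). Only the neighbours Mog and Mag had ranges that overlapped there. In PI WT the order was the same except that Mag (8.94 CPM per kb) stood above Mog (6.89), and 4 pairs of neighbours overlapped: Mobp with Cldn11, Cnp with Ermn, Mag with Mog, and Aspa with Opalin. In CL KO the order was that of CL WT. In PI KO Ermn (20.1 CPM per kb) stood beside Cnp (19.8) with overlapping ranges, and Mag (9.45) stood above Mog (7.51) without overlap. These orders describe the groups and were not tested.

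**Figure D1:**
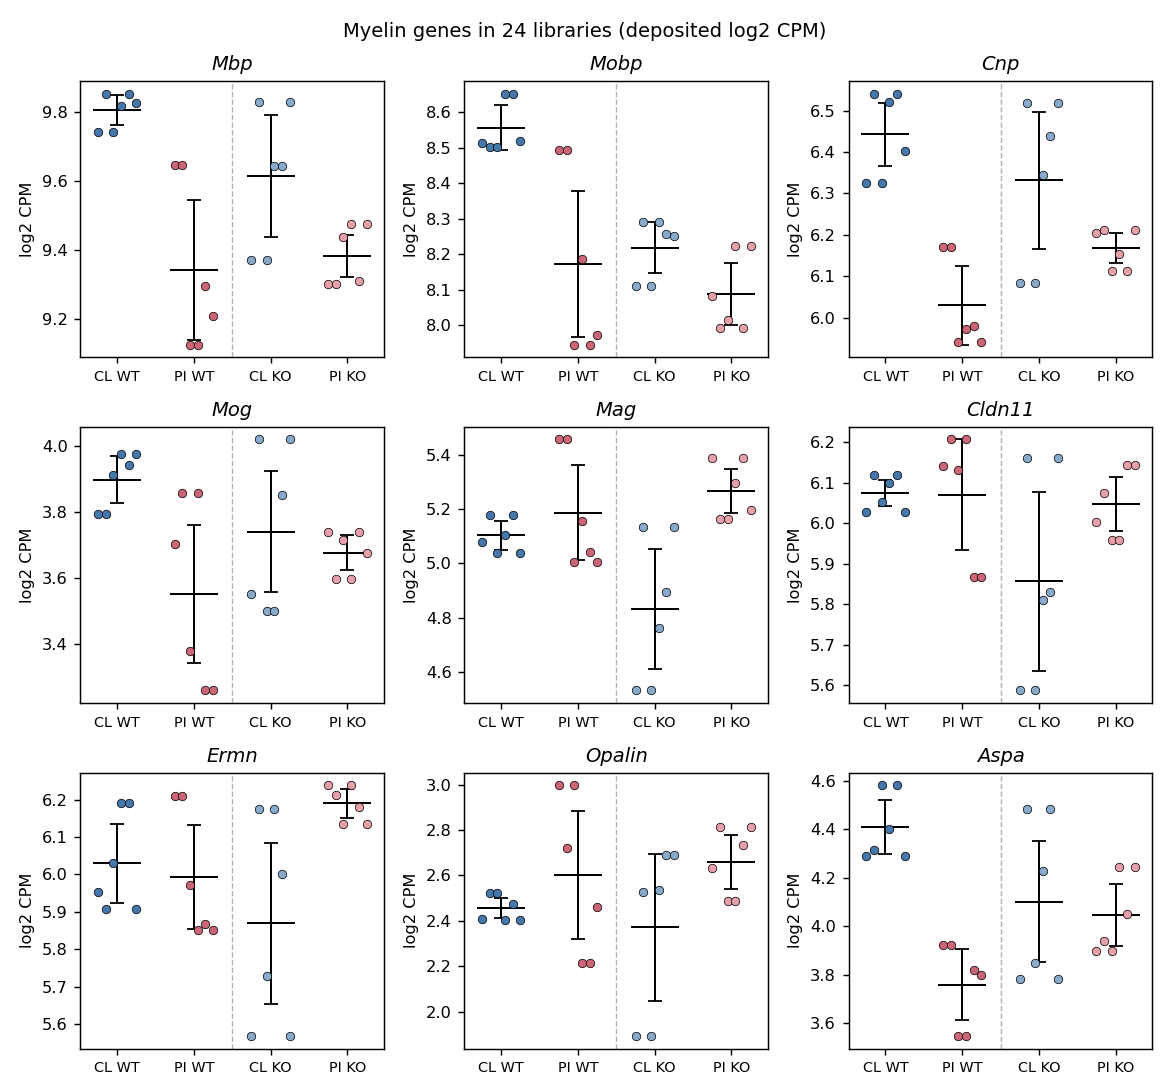
Deposited log2 CPM of the 9 genes (y axis) in each library (points) of the 4 groups (x axis). Black bars are the means of the 4 recovered values with their SE, n = 6 libraries per group. The dashed line parts the 2 tables, which were scaled separately. In Mbp, Mobp, Cnp and Aspa all PI WT points lie below all CL WT points as deposited, and in most panels PI WT and CL KO are the widest groups.

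In wild type animals, transcripts of some myelin genes were lower in PI than in CL cortex. Aspa and Cnp fell, by 0.65 and 0.41 on the log2 scale, which is 36.3% and 24.9%. Mbp, Mobp and Mog were at differences of -0.46, -0.38 and -0.35 that did not pass the test, and Ermn, Cldn11, Mag and Opalin lay between -0.04 and 0.14. So 2 of 9 members were called, both lower, where 10.6% of the 14489 genes tested were called, 5.4% lower and 5.2% higher. The sign was negative in 7 of 9 members and in 47.7% of all genes. Among the 7 were Cldn11 at -0.0046 and Ermn at -0.04, which turned positive when certain single libraries were left out. The members come from the same libraries, so their signs are not separate pieces of evidence. The median difference over the members was -0.35, beside 0.01 over all genes. All tests were moderated tests of trimmed means built on limma, two-sided, with Benjamini-Hochberg adjustment over all genes of a table and a call at an adjusted p under 0.05.

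Mbp encodes myelin basic protein, which glues the inner faces of the membrane together and makes the sheath compact. The gene lies at chr18:82475146-82585637 (GRCm38, plus strand). Mbp ranged from 9.74 to 9.85 log2 CPM in CL WT (median 9.82) and from 9.13 to 9.65 in PI WT (median 9.25). The deposited ranges did not overlap, but the recovered values did: the second highest of PI WT was 9.76 and the second lowest of CL WT 9.72. The PI WT libraries of animals 1 and 2 were deposited at 9.65 while the other 4 were at 9.13 to 9.30. The difference was -0.46 ± 0.15 (SE, n = 6 per group; limma-based adjusted p = 0.0658). Without PI WT library 1, or without library 2, it was -0.60 and passed the test (adjusted p = 0.000485 and 0.000486).

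Mobp encodes a small basic protein of compact myelin. It lies at chr9:120149707-120181484 on the plus strand, and 79 bases of its exons overlap Gm38642 on the same strand. Mobp ranged from 8.50 to 8.65 log2 CPM in CL WT (median 8.52) and from 7.94 to 8.49 in PI WT (median 8.08). The PI WT libraries of animals 1 and 2 were deposited at 8.49 and the other 4 at 7.94 to 8.19. The recovered values overlapped, with 8.59 as the second highest of PI WT and 8.50 as the second lowest of CL WT. The difference was -0.38 ± 0.15 (SE; adjusted p = 0.140 by the limma-based test). It was -0.53 and passed the test without library 1 or without library 2 (adjusted p = 0.00404 and 0.00361).

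Cnp encodes a cyclic nucleotide phosphodiesterase that keeps cytoplasmic channels in the sheath open. It lies at chr11:100574904-100591729 on the plus strand, where 154 bases of exon overlap Dnajc7 on the opposite strand, and whether reads were counted by strand is not given in the sources used here. Cnp ranged from 6.32 to 6.54 log2 CPM in CL WT (median 6.46) and from 5.94 to 6.17 in PI WT (median 5.98). The 4 recovered values of each group were apart, with 6.23 as the second highest of PI WT and 6.30 as the second lowest of CL WT, and animals 1 and 2 were again the top pair of PI WT. The difference was -0.41 ± 0.10 (SE; adjusted p = 0.0167 by the limma-based test). Cnp was not called without CL WT library 4 or without CL WT library 5 (adjusted p = 0.0501 and 0.0503).

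Mog encodes a glycoprotein of the outermost face of the sheath, and lies at chr17:37010743-37023398 on the minus strand. It ranged from 3.79 to 3.98 log2 CPM in CL WT and from 3.26 to 3.86 in PI WT, where the groups overlapped. The difference was -0.35 ± 0.17 (SE; adjusted p = 0.252 by the limma-based test), with a 95% interval of -0.72 to 0.03.

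Aspa encodes aspartoacylase, the oligodendrocyte enzyme that splits N-acetylaspartate and frees acetate that can enter myelin lipids. It lies at chr11:73304992-73329596 on the minus strand. Aspa ranged from 4.29 to 4.58 log2 CPM in CL WT (median 4.36) and from 3.55 to 3.93 in PI WT (median 3.81). The 4 recovered values of each group were apart, with 3.96 as the second highest of PI WT and 4.28 as the second lowest of CL WT. The difference was -0.65 ± 0.15 (SE; adjusted p = 0.0134 by the limma-based test). It was called with each library left out in turn (adjusted p from 0.00984 to 0.0348). With a prior variance that does not follow expression, neither Aspa nor Cnp was called (adjusted p = 0.0558 and 0.0735), so that 0 of 9 members passed.

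The differences of the other 4 genes did not pass the test. Mag encodes an adhesion protein of the face of the sheath next to the axon (chr7:30899176-30914873, minus strand). Its difference was 0.08 with a 95% interval of -0.22 to 0.38. Cldn11 encodes the claudin of the tight junctions between myelin layers (chr3:31149920-31164324, plus strand), at -0.00 (-0.24 to 0.23). Ermn encodes ermin, a protein of the cytoskeleton of the sheath (chr2:58045113-58052864, minus strand; 237 bases of exon overlap Galnt5 on the opposite strand), at -0.04 (-0.32 to 0.25). Opalin encodes a membrane glycoprotein of differentiated oligodendrocytes (chr19:41061710-41077113, minus strand), at 0.14 (-0.35 to 0.64). Their adjusted p-values were 0.770 to 0.987 by the limma-based test, and of their intervals only that of Opalin reached as low as the difference of Mog. Whether these 4 genes differ from the other 5 in their change was not tested.

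The deposited ranges of PI WT lay wholly below those of CL WT in 4 of 9 members (Mbp, Mobp, Cnp and Aspa) and in 16.3% of all genes, although the recovered values of Mbp and Mobp overlapped. With limma on the deposited values 5 of 9 members were called (Mbp, Mobp and Mog besides Cnp and Aspa), as were 44.6% of all genes. The spread of these values is too small after the drawing in. With the animal as a replicate block in that fit the count was also 5, beside 6614 of all 14489 genes. By animal, PI was deposited below CL in 6 of 6 for Mbp, Mobp, Cnp and Aspa, as their ranges require. It was below in 5 for Mog, 4 for Ermn, 3 for Mag, and 2 each for Cldn11 and Opalin.

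**Figure D2:**
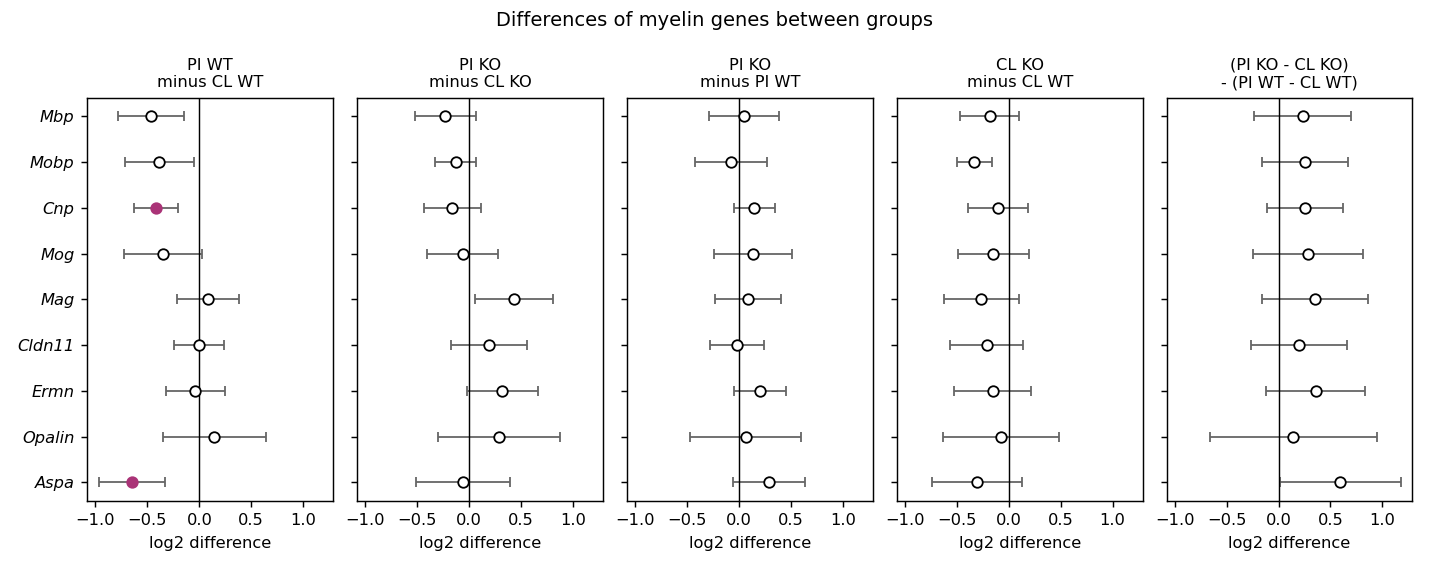
Log2 differences of the 9 genes (x axis, same scale in each panel) in 5 comparisons, with 95% intervals. Filled points passed the test at an adjusted p under 0.05 and open points did not. Only Cnp and Aspa in PI WT against CL WT are filled, and every point of the interaction panel lies to the right of 0.

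In ciRS-7 knockout animals, 0 of 9 members were called between PI and CL, where 10% of the 14338 genes were called, 5.11% higher and 4.94% lower. At an unadjusted p under 0.05 the count was 1 of 9 (Mag), beside 24.9% of all genes, and limma on the deposited values called 4 of 9 and 46.5% of all genes. With the animal as a replicate block in that limma fit the count was 5 of 9, beside 6759 of all 14338 genes. The 5 members were Mag, Ermn and Cldn11 (higher) and Mbp and Mobp (lower). By animal, PI was deposited below CL in 6 of 6 for Mobp, 5 for Mbp, 4 for Cnp and 3 for Mog. It was below in 2 each for Aspa and Cldn11, 1 for Opalin, and 0 each for Mag and Ermn. The main test does not use this pairing. The sign was negative in 5 of 9 members, as in 50.1% of all genes, and the median difference was -0.06. Mag ranged from 4.53 to 5.13 log2 CPM in CL KO (median 4.83) and from 5.16 to 5.39 in PI KO (median 5.25). Mag was the only member whose deposited ranges were apart, 1 of 9 higher, where 17.1% of all genes were apart in that direction. The recovered values of Mag overlapped, with 5.15 as the second lowest of PI KO and 5.21 as the second highest of CL KO. Its difference was 0.43 ± 0.17 (SE; adjusted p = 0.139 by the limma-based test), and it passed without CL KO library 2 or without library 6, at 0.56 (adjusted p = 0.0335 and 0.0276).

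Mbp ranged from 9.37 to 9.83 log2 CPM in CL KO (median 9.64) and from 9.30 to 9.47 in PI KO (median 9.37). The groups overlapped, and CL KO libraries 1 and 3 were deposited at 9.37, within the range of PI KO. The difference was -0.23 ± 0.14 (SE; adjusted p = 0.321 by the limma-based test). Without CL KO library 1, or without library 3, Mbp was at -0.34 and passed (adjusted p = 0.0394 and 0.0459). Cnp was at -0.16 (95% interval -0.44 to 0.11), Mobp at -0.13 (-0.33 to 0.06), Mog at -0.06 (-0.41 to 0.28) and Aspa at -0.06 (-0.51 to 0.40). Ermn was at 0.32 (-0.03 to 0.67), Opalin at 0.29 (-0.30 to 0.87) and Cldn11 at 0.19 (-0.17 to 0.55). Aspa, which fell in wild type, ranged from 3.78 to 4.48 log2 CPM in CL KO and from 3.90 to 4.25 in PI KO, so that the deposited range of PI KO lay within that of CL KO.

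The test of whether the PI minus CL difference itself differed between genotypes called 0 of 9 members and 0 of 14211 genes (0%). At an unadjusted p under 0.05 it had 1 of 9 (Aspa) and 4.55% of all genes, and limma on the deposited values called 1 of 9 (Aspa) and 13.7% of all genes. Aspa had the largest member difference, 0.60 ± 0.28 (SE; adjusted p = 0.992 by the limma-based test), and the others lay between 0.14 and 0.36. None of the 9 signs was negative, against 50.1% over all genes, and the median was 0.25 beside -0.00 over all genes. The 9 values are not separate pieces of evidence, since they come from the same 24 libraries.

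Between genotypes on one side, no member was called. In CL cortex all 9 members had lower means in KO than in WT, where 50.8% of all genes did, with a median of -0.18 and a range from -0.33 to -0.08. Of the members, 0 of 9 were called and 0.0279% of the 14323 genes tested, and at an unadjusted p under 0.05 there was 1 of 9 (Mobp) and 5.73% of all genes. Mobp ranged from 8.47 to 8.62 log2 CPM in CL WT and from 8.08 to 8.26 in CL KO in the table of these 2 groups. It was the only member whose deposited ranges were apart, 1 of 9 lower, beside 6.77% of all genes. The difference was -0.33 ± 0.08 (SE; adjusted p = 0.461 by the limma-based test), and limma on the deposited values called Mobp alone of the 9 and 16.1% of all genes. For the other 8 the 95% intervals included 0. Without CL KO library 1, or without library 3, the differences of Cnp and Opalin turned positive, to 0.01 and 0.15.

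In PI cortex, 0 of 9 members were called and 0.0208% of the 14452 genes tested. At an unadjusted p under 0.05 the counts were 0 of 9 and 5.75%, and limma on the deposited values called 3 of 9 (Cnp, Ermn and Aspa) and 16.5% of all genes. Deposited ranges were apart in 0 of 9 members and in 14.1% of all genes. The sign was negative in 2 of 9 members (Mobp at -0.08 and Cldn11 at -0.02) and in 51.5% of all genes, and the median was 0.09. Aspa had the largest value, 0.29 with a 95% interval of -0.06 to 0.64, and Mog, which like Mobp holds a miR-7 seed match, was at 0.13 (-0.24 to 0.51). These comparisons share their groups with those of PI and CL, so that a low CL KO group enters both the comparison with CL WT and that with PI KO.

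The members did not vary equally in the 4 groups. The median SE of a member's group mean was 0.0637 on the log2 scale in CL WT, 0.174 in PI WT, 0.215 in CL KO and 0.0668 in PI KO. Other genes with a mean above 2 log2 CPM had median SEs of 0.0581, 0.0650, 0.0639 and 0.0684 in the same groups. In PI WT, the libraries of animals 1 and 2 were among the 2 highest for 7 and 8 of the 9 members, and neither was among the 2 lowest for any. In CL KO, libraries 1 and 3 were among the 2 lowest for 8 and 7 of the 9, and library 2 was among the 2 highest for 8. The mean over the 9 genes was 5.86 and 5.85 log2 CPM in PI WT libraries 1 and 2, within the 5.79 to 5.95 of CL WT, against 5.48 to 5.57 in the other 4. In CL KO it was 5.39 and 5.41 in libraries 1 and 3 against 5.70 to 5.90 in the other 4.

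**Figure D3:**
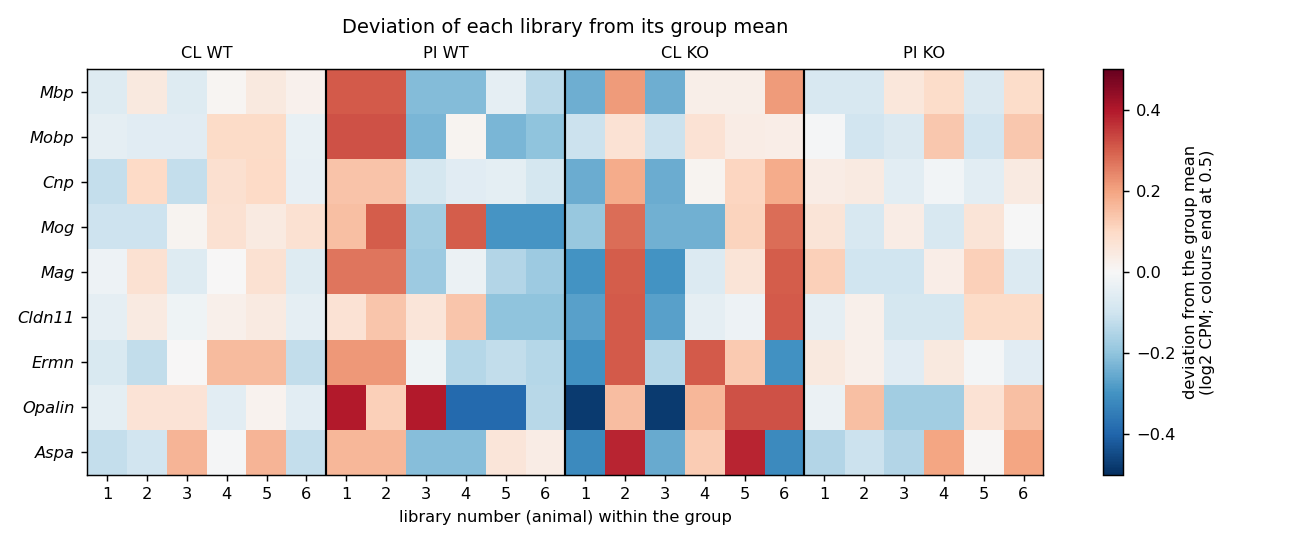
Deviation of each of the 24 libraries (columns) from its group mean for each of the 9 genes (rows), in log2 CPM, with colours that end at 0.5. Columns 1 and 2 of PI WT are red and columns 1 and 3 of CL KO are blue in nearly all rows, while the columns of CL WT and PI KO stay pale.

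In PI WT and CL KO, the libraries that stood out also stood out in depth. PI WT libraries 1 and 2 were the deepest of their group, at 9.78 and 9.16 M reads, against 6.15 to 7.01 M in the other 4. CL KO libraries 1 and 3 were the shallowest of theirs, at 6.60 and 6.84 M, against 7.47 to 10.4 M. Other libraries did not follow this order. In CL KO the highest member mean was in library 2 at 7.51 M, and not in the deepest, library 5 at 10.4 M. In CL WT the deepest library, number 2 at 8.31 M, deviated from the group mean by -0.00445. In PI KO the shallowest library, number 6 at 5.30 M, had the highest member mean of its group. The part of depth in the members' levels was not tested.

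**Figure D4:**
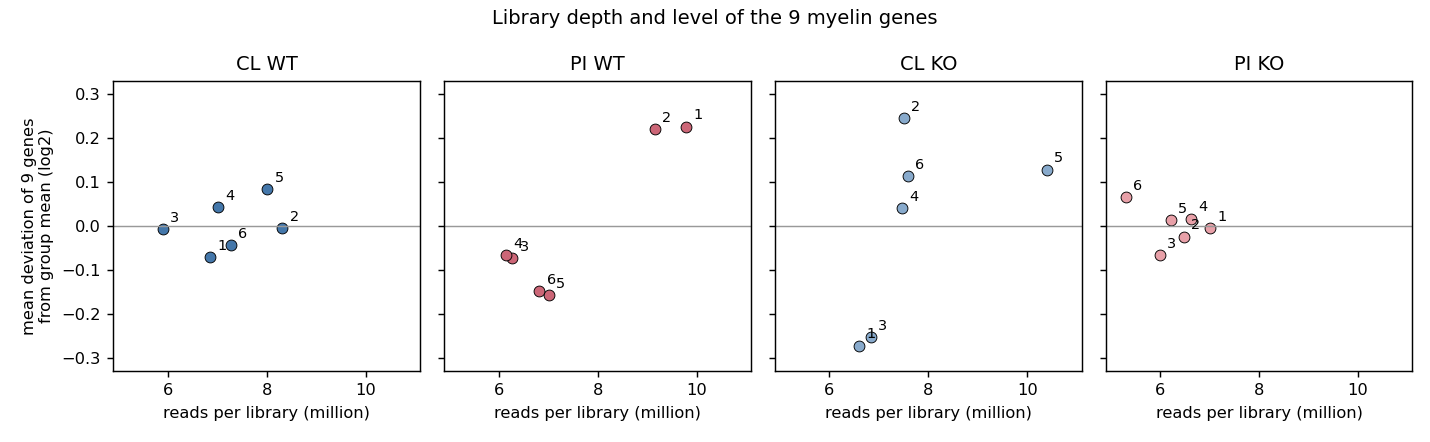
Mean deviation of the 9 genes from the group mean (y axis, log2) against library depth (x axis, M reads) in the 4 groups, with 1 point per library labelled by its number. PI WT libraries 1 and 2 stand at the top right, and CL KO libraries 1 and 3 at the bottom left of their panels.

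Across the 24 libraries the members moved together. Pearson's r between the deviations of 2 members from their group means had a median of 0.579 over the 36 pairs (range 0.195 to 0.859), which share libraries, depth and scaling. It was 0.576 after each library was centred on its median gene. Within groups of 6 the median was 0.426 in CL WT, 0.641 in PI WT, 0.799 in CL KO and -0.0230 in PI KO. With PI WT libraries 1 and 2 and CL KO libraries 1 and 3 left out, a choice made after the values were seen, the median was 0.145 over 20 libraries, and only 5 of 36 pairs stayed above 0.5, against 23 with all 24. These 4 were chosen because they stood out in the members, so a lower median was to be had from the choice itself. Each member's r with the mean of the other 8 was highest for Cnp (0.878), Mag (0.876) and Mbp (0.836) and lowest for Aspa (0.537).

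The genes outside the 9 whose deviations were most like theirs were Mal (r = 0.823 over 24 libraries), Ttyh2 (0.801), Olig1 (0.798), Gprc5b (0.773), Galnt6 (0.766), Tspan2 (0.762), Gjc3 (0.760), Mgst1 (0.757) and Bcas1 (0.756). Over 14202 other genes the median was -0.0036 and the 95th percentile 0.381. Of the fixed lists, 37 other genes of mature oligodendrocytes had a median r of 0.557, with 20 above 0.5. The 11 transcription factors of the lineage had a median of 0.611 and were split, with 6 above 0.5. Olig2, Sox8, Zfp488, Tcf7l2 and Zfp536 were at -0.0351, -0.0108, 0.0118, 0.231 and 0.236. The 11 precursor markers had a median of 0.184, with 1 above 0.5. The lists share genes: Olig1 is in those of factors and precursors, and Myrf and Nkx6-2 in those of factors and mature genes. Neuron, astrocyte, microglia, endothelial and striatum markers had medians of 0.0062, 0.143, 0.0629, -0.0566 and 0.0352. The 5 hippocampus markers measured had a median of 0.108, with 1 above 0.5. The 16 genes of myelin lipid synthesis outside the 9 had a median of 0.225, with 4 above 0.5. Ugt8a, Fa2h and Gal3st1 are in this list and in that of mature genes. The genes of one list share cells, so these values are descriptions.

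Other oligodendrocyte genes went in both directions between PI and CL. Of 38 other genes of mature oligodendrocytes listed in wild type, 5 were called higher and 7 lower (median -0.16), and of 37 in the knockout 5 higher and 2 lower (median 0.06). The same 3 genes had the smallest p in both genotypes. Enpp2, which encodes autotaxin and is also made by choroid plexus, fell by 0.69 in wild type and by 0.62 in the knockout. Il33, an alarm cytokine that astrocytes can also make, rose by 1.43 and 1.65. Cd9, a tetraspanin that many cell types carry, rose by 0.83 and 0.85. Their adjusted p-values were 0.000108, 0.000217 and 0.000516 in wild type and 2.19e-05, 6.02e-05 and 0.00014 in the knockout by the limma-based test. Of the genes named as most like the members, Mal, Gjc3, Tspan2 and Bcas1 are in this list. In wild type Mal and Gjc3 were called lower, at -0.45 and -0.46, and Tspan2 and Bcas1, at -0.25 and -0.30, were not called. In the knockout Mal, Gjc3, Tspan2 and Bcas1 were at -0.29, -0.37, -0.11 and 0.06, and none was called. The difference between genotypes was 0.15 for Mal and 0.08 for Gjc3, and neither was called.

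Of 11 lineage transcription factors, only Sox8, a relative of SOX10, was called in either genotype. It ranged from 4.34 to 4.45 log2 CPM in CL WT and from 3.67 to 4.03 in PI WT, and fell by 0.53 (adjusted p = 0.0119 by the limma-based test). In the knockout it fell by 0.66 (adjusted p = 0.00592). Of 11 precursor markers 1 was called lower in each genotype, Cspg4 in wild type and Tnr in the knockout. Of 17 genes of myelin lipid synthesis, among them Aspa, 4 were called higher in wild type and 1, Aspa, lower, and in the knockout 6 were called higher and 0 lower.

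Markers of other cells moved between PI and CL as well. Neuron markers had 6 of 12 called lower in wild type (summed level 6774 to 7493 CPM in PI against 8137 to 8756 in CL), and in the knockout 5 of 12 lower and 1 higher (6540 to 7279 against 8272 to 8516). The list named for the node and paranode, where axon and sheath meet, had 6 of 11 genes called lower in each genotype. Its median r with the members was 0.200, with 0 above 0.5. Reactive astrocyte genes had 10 of 11 called higher in wild type and 9 of 10 in the knockout. Microglia markers had 6 of 12 higher in both, and 2 and 1 lower. Astrocyte markers had 1 of 12 higher in both and 4 and 2 lower, and endothelial markers had 1 of 12 higher in both and 1 and 2 lower. Of 10 meningeal and fibroblast markers and of 5 measured hippocampus markers, 1 was higher and 1 lower in each genotype, and of the choroid plexus and neutrophil markers measured 0 were called. Striatum markers, which would mark tissue beneath the cortex, summed to 331 to 359 CPM in PI WT against 384 to 476 in CL WT, with 1 of 9 called higher and 2 lower, and to 324 to 347 in PI KO against 377 to 404 in CL KO, with 0 higher and 2 lower. The part of these shifts in the members' levels was not tested.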

How the data were processed

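The authors deposited 4 tables of log2 CPM, per the file headers, each holding 12 libraries of 2 groups and each scaled on its own, so that tests were made only within a table (the same library differed by a median of 0.0256 to 0.0364 log2 between tables). Reads were mapped to mm10, per the submitters' processing notes. The aligner, counter, strand setting and filters are not given in the sources used here. Per the labels' protocols, RNA was depleted of ribosomal RNA and made into total RNA libraries. All columns were used. In 100% of genes and groups the 2 lowest values and the 2 highest were tied. The 4 inner values were recovered by undoing the quartile weights of 0.75 and 0.25, which left the lowest and highest library unknown and allowed no count test. That these are quartiles was read from the values: 50.0% to 87.4% of low values became whole reads (within 0.03 reads) after recovery, against 6.82% to 10.8% as deposited. The steps gave 5.25 to 10.5 M reads per library.

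Group means of the 4 recovered values were compared with a pooled Winsorized variance (6 degrees of freedom for 2 groups and 12 for 4), moderated by limma 3.58.1 (R 4.3.3) with a trend, and tested on simulated data. p-values were two-sided and Benjamini-Hochberg adjusted over all genes of a table, with calls at values under 0.05. The test of the difference between genotypes used the genes that the WT and the KO table share. Alternatives were limma on the deposited values (with library centring, or with the animal as a block), no trend, group centring, log2(CPM + 1), a filter at a mean of 1 log2 CPM, and each library left out. The animal numbers come from the labels and pair the libraries of a genotype, a pairing that the main test did not use. Deviations of the same animal in PI and CL had a median r of 0.269 in WT (-0.14 to 0.331) and 0.0176 in KO (-0.0093 to 0.166).

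The members and the 16 gene lists were chosen with earlier results of these data known. Named were all 9 members, up to 3 called genes with the smallest p from the lists of other mature oligodendrocyte genes and lineage factors, and the 10 genes most like the members by Pearson's r, of which 9 are given because 1 gene is not reported here. The called precursor markers, and the differences of Mal, Gjc3, Tspan2 and Bcas1, were named after their values were seen. Positions, exon lengths and 3′ UTRs are from GENCODE M21 (GRCm38), and promoters and the microRNA from RefSeq (GRCm38.p6).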

Additional observations from a re-analysis of the deposited data

How the results depend on the processing

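For PI WT against CL WT, 2 members were called. The count was 0 with no trend in the prior variance (1015 genes called in all against 1537), and 5 with limma on the deposited values (6459 genes), with library centring (6567) and with the animal as a replicate block (6614). Leaving out 1 library gave 1 to 4. With each group centred on its median gene Mbp also passed (-0.50, limma-based adjusted p = 0.0468). For PI KO against CL KO, 0 were called, 4 with limma (6666 genes against 1440), 5 with library centring (6683) and 5 with the replicate block (6759), and 0 to 1 with a library left out. For PI KO against PI WT the count of 0 became 3 with limma (2388 genes against 3) and 3 with centring (2427). For CL KO against CL WT it became 1 and 1 (2311 and 2215 genes against 4), and for the difference between genotypes 1 and 1 (1940 and 1902 genes against 0). In these 3 comparisons leaving out a library gave 0 to 0. Limma reads the drawn-in values, whose spread is too small. The cause of the other changes was not tested.

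Differences that changed sign when 1 library was left out were, in wild type, Mag (-0.0386 to 0.15), Opalin (-0.0182 to 0.301), Ermn (-0.136 to 0.0337) and Cldn11 (-0.0576 to 0.0924). In the knockout they were Mog (-0.150 to 0.0479) and Aspa (-0.17 to 0.10). Between genotypes in PI they were Cldn11 (-0.116 to 0.0344), Mobp (-0.154 to 0.0647), Mbp (-0.0339 to 0.193) and Opalin (-0.0942 to 0.226). In CL they were Cnp (-0.173 to 0.00966) and Opalin (-0.20 to 0.15), and in the difference between genotypes Opalin (-0.0866 to 0.307).

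The median r among members, 0.579, was 0.799 within CL KO, -0.0230 within PI KO and 0.145 over the 20 libraries left when 4 were removed, a choice made after seeing the data and from these genes' own values. Depth limits Opalin most, and the unknown lowest and highest library of each group limits every spread.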
